A study of Mus musculus with 10 samples.

Results

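Glycolysis splits glucose into pyruvate in the cytosol and yields ATP and NADH on the way. Pyruvate is then either reduced to lactate and exported, or carried into the mitochondrion and oxidised by the pyruvate dehydrogenase complex. Many steps have several genes whose enzymes differ in kinetics and in the cell types that use them: in brain, for example, Slc2a3, Hk1 and Eno2 are known as neuronal forms and Aldoc as a form of radial glia and astrocytes. Dividing progenitors are generally more glycolytic than postmitotic neurons, which rely more on mitochondrial oxidation.

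The genes described here are 37 genes of glycolysis and pyruvate metabolism, chosen by symbol from glucose uptake to the entry of pyruvate into the mitochondrion, and all 37 were among the 14300 genes of the count table. They were measured in cells sorted from embryonic brains of C57BL/6J mice carrying Grem1creERT; Rosa26LSLTdTomato, a reporter in which a tamoxifen-activated Cre under Grem1 control turns on TdTomato. The dams had tamoxifen at 13.5 dpc, 24 h before dissection, and flow cytometry then separated viable cells by the reporter into a TdTomato+ and a TdTomato- fraction. Both populations therefore share the alleles and the tamoxifen, and differ in whether Cre had acted in the cell or its ancestors. Each of 5 mouse numbers, 2 to 6, gave 1 library of either population, 10 in all. The methods describe dorsal telencephalon freed of meninges, whereas the labels say only brain, and neither says whether embryos were pooled under a number.

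The libraries held 23429034 to 27286180 counts each. Grem1, whose sequences drive Cre, was 60.7 to 68.4 CPM in TdTomato+ and 5.0 to 7.0 CPM in TdTomato- libraries, so the sort followed its label in all 10. CPM here is the count scaled to the library size after TMM normalisation, and log2FC is the edgeR log2 fold change of TdTomato+ against TdTomato- cells. The populations were mixtures of unlike cells: the 6 deep-layer neuron markers summed to 1767 to 2506 CPM in TdTomato- and 6793 to 8118 CPM in TdTomato+ libraries, the 8 radial glia markers to 1572 to 1848 against 128 to 176 CPM, the 6 proliferation markers to 1502 to 1820 against 53.6 to 87.0 CPM, and the 6 GABAergic markers to 1179 to 1509 against 35.5 to 51.9 CPM. The deep-layer list was Tbr1, Fezf2, Bcl11b, Sox5, Neurod2 and Neurod6. The paper names Neurod2 and Neurod6 as markers of immature neurons, so this sum is not of layer identity alone. Their means were 434 and 451 CPM in TdTomato- and 1256 and 1345 CPM in TdTomato+ libraries. All 6 deep-layer markers were higher and all 24 markers of radial glia, intermediate progenitors, proliferation and GABAergic neurons were lower in TdTomato+ cells. These marker sums separated the populations in every comparison below, and their part in the results was not tested. Among the TdTomato- libraries, that of mouse 2 stood apart from the others for Pfkp, Gapdh, Eno1 and Pdha1, which are also given without that mouse. In sorted bulk cells, fewer cells of a type and less RNA per cell cannot be told apart.

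The windows before a RefSeq start of 7 of these genes are printed first, because these genes belong to steps whose isoforms differed between the populations. Slc2a1, Hk2, Hk1, Eno2 and Eno1 belong to pairs of isoforms that moved in opposite directions. Pfkp and Aldoc had the largest change of their steps and were added after the values were seen. Each window is the 250 bases upstream of a RefSeq start in GRCm38.p6, and where RefSeq gives several (2 for Hk1 and Aldoc, 3 for Eno1) it is the one with the largest number of GENCODE transcripts starting within 50 bases, or the first on a tie (1 of 20 transcripts for Hk1, 1 of 6 for Aldoc, 3 of 11 for Eno1). The windows are written 5′ to 3′ on the strand of the gene, and capitals mark ACGTG or GCGTG on either strand, the 5 letters at the centre of the sites that HIF factors are known to bind. On the opposite strand they read CACGT and CACGC, and CACGTG holds ACGTG on both strands.
Slc2a1, chr4:119108495-119108744 (plus strand): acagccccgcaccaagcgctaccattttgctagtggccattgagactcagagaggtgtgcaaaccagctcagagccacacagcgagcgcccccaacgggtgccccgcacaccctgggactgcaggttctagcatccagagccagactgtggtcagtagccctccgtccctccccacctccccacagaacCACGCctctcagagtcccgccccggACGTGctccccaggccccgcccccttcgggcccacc
Hk2, chr6:82774455-82774704 (minus strand): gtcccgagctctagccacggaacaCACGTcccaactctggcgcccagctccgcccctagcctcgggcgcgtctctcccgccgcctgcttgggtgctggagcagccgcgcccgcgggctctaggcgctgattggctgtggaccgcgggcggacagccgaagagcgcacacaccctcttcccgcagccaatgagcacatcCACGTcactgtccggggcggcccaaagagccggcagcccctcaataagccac
Hk1, chr10:62379909-62380158 (minus strand): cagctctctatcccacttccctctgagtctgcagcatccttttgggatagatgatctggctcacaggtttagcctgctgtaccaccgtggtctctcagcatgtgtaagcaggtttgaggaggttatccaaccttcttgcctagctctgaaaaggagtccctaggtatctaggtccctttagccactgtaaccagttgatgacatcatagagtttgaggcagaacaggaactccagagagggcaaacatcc
Eno2, chr6:124769674-124769923 (minus strand): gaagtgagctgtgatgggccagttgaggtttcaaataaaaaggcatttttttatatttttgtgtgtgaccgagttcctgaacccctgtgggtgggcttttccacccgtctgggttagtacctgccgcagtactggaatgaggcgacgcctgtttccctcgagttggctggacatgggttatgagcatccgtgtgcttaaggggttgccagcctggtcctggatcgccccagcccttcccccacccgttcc
Eno1, chr4:150236947-150237196 (plus strand): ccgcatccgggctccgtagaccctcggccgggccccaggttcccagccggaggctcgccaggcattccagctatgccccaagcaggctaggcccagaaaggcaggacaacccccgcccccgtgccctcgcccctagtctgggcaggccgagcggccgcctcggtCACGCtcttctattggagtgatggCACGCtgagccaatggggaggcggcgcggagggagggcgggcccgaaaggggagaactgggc
Pfkp, chr13:6648772-6649021 (minus strand): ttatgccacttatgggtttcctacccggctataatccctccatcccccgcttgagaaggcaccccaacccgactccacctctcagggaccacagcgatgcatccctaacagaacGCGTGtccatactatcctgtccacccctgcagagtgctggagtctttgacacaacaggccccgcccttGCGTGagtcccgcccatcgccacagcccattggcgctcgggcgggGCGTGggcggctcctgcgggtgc
Aldoc, chr11:78323948-78324197 (plus strand): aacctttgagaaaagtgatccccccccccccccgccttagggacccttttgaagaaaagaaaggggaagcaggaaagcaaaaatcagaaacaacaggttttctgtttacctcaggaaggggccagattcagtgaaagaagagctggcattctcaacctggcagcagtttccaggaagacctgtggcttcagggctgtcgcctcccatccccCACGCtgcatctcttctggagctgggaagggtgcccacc

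Capitals occur in the windows of Slc2a1, Hk2, Eno1, Pfkp and Aldoc, and the Hk1 and Eno2 windows hold neither motif, although the other window of Hk1 holds GCGTG. The Eno1 and Aldoc windows lie inside the GENCODE span of the gene, downstream of its first start. RefSeq windows were found for 35 of the 37 genes, Slc2a3 and Pdp1 being the others, and a gene was counted when any of its windows held the motif. ACGTG was in the windows of 16 of 35 genes (45.7%), against 18.5% of 27025 genes. GCGTG was in those of 22 of 35 (62.9%), against 30.9%. The median GC content was 60.8% in windows of these genes and 52.4% over all windows, and how far this sets the motif counts was not tested. Among the genes with windows, ACGTG was found for 3 of 10 that were higher and 11 of 20 that were lower in TdTomato+ cells, and GCGTG for 9 of 10 and 9 of 20. A match of these letters is a description of the window and does not show a bound site.

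Of the 37 genes, 12 were higher in TdTomato+ cells (32.4%, against 37.9% of all genes) and 20 were lower (54.1%, against 39.4% of all genes) by the edgeR quasi-likelihood test with the mouse as a block, at an adjusted p of 0.05 or less. The other 5 were Pfkl, Ldha, Slc16a1, Pdha1 and Dld. A difference of at least 2-fold was found for 5 higher genes (13.5%, against 12.1% of all genes), Slc2a3, Hk1, Pfkp, Pfkfb2 and Eno2, and for 7 lower genes (18.9%, against 16.4%), Slc2a1, Hk2, Aldoc, Bpgm, Eno1, Slc16a3 and Pdk4. At the threshold that the study uses for DEGs, a log2FC beyond 2 in either direction, Pfkp was higher (2.7%, against 3.2% of all genes) and Hk2, Aldoc, Bpgm and Pdk4 were lower (10.8%, against 9.74%). Bpgm came under that threshold without mouse 2 or mouse 6. The values of the populations did not overlap for 12 higher genes (32.4%, against 29.1% of all genes) and 17 lower genes (45.9%, against 32.4%). The shares of genes passing the fold thresholds thus lay near those of all genes, and the share called lower lay above it. The median log2 fold change was −0.16 over the 37 genes and −0.01 over all genes. Their summed level was 3348 to 4027 CPM in TdTomato- and 3136 to 3376 CPM in TdTomato+ libraries.

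**Figure D1:**
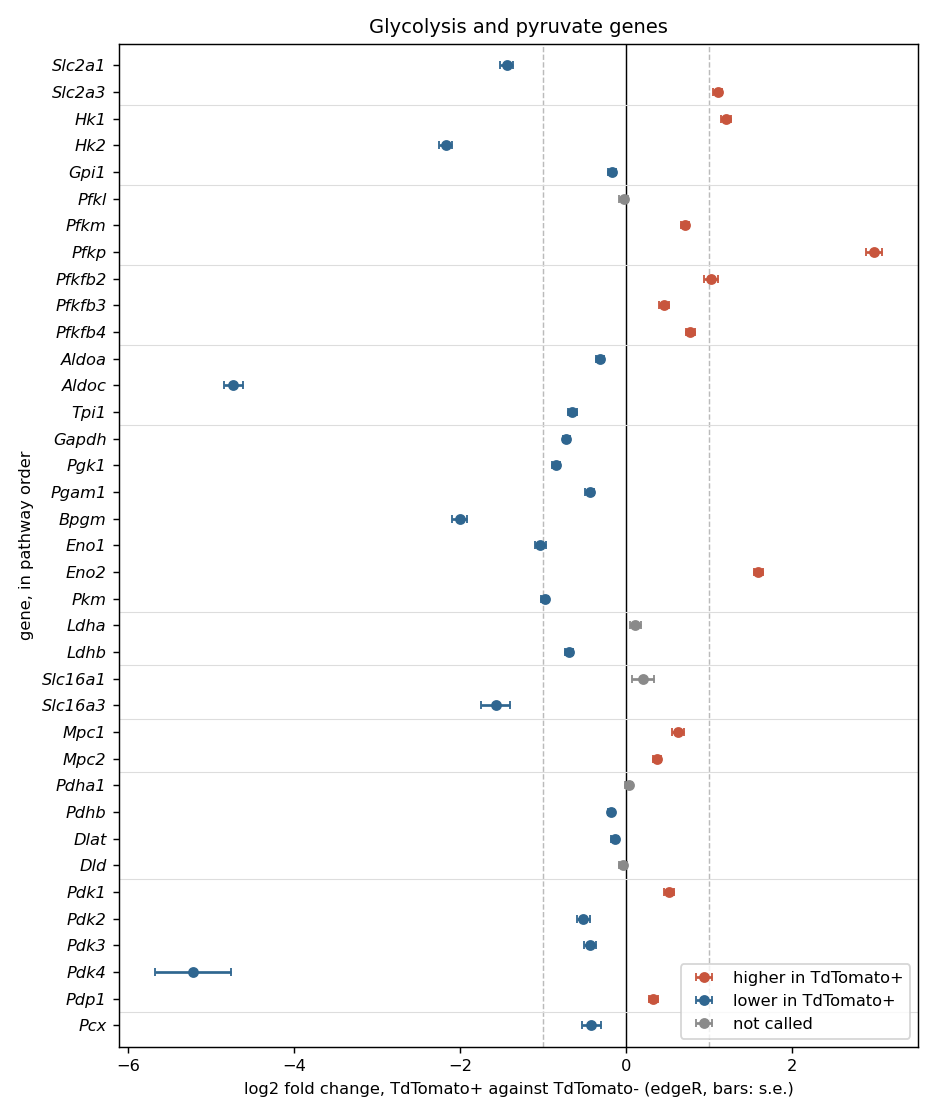
Log2 fold change of TdTomato+ against TdTomato- cells (horizontal axis, edgeR, bars show the s.e.) for the 37 genes in pathway order from glucose uptake (top) to pyruvate carboxylase (bottom), with dashed lines at 2-fold. Phosphofructokinase genes and the pyruvate carrier lie to the right or, for Pfkl, near 0, whereas aldolase to pyruvate kinase lies to the left except for Eno2 at 1.59; the Pdk4 value rests on libraries at or under 3 counts and is no bound.

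At glucose uptake the leading transporter gene differed between the populations. Slc2a1 encodes GLUT1, the transporter of most dividing cells and of the blood-brain barrier, and lies in GRCm38 as ENSMUSG00000028645, chr4:119108711-119137983, plus strand. In mice 2 to 6 it was at 29.7, 38.6, 37.2, 35.0 and 34.7 CPM in the TdTomato- libraries and at 9.16, 15.7, 16.4, 11.6 and 12.6 CPM in the TdTomato+ libraries. Every TdTomato- library was above every TdTomato+ library, a 2.71-fold difference (log2FC −1.44, s.e. 0.08, adjusted p = 3.1e-07, edgeR). Slc2a3 encodes GLUT3, the high-affinity transporter of neurons (ENSMUSG00000003153, chr6:122727809-122801640, minus strand). Its transcripts were at 22.9, 21.6, 23.2, 25.1 and 26.9 CPM in the TdTomato- libraries and at 54.4, 49.8, 46.2, 52.9 and 54.1 CPM in the TdTomato+ libraries of the same mice. These groups did not overlap either, with Slc2a3 higher in the TdTomato+ library of all 5 mice (log2FC 1.11, s.e. 0.06, adjusted p = 1.4e-07, edgeR). Per kilobase of annotated exon, Slc2a3 made up 25%±2.60 (s.d., n = 5) of the CPM of both transporters in TdTomato- and 65.8%±6.64 in TdTomato+ libraries, so that the leading transporter changed. With the length of the longest coding transcript in place of all exons these shares were 36.1% and 76.4%. The summed level of both per kilobase changed by −0.29±0.06 on the log2 scale (s.d. over 5 mice) with exonic length and by 0.02 with coding transcript length, so its direction depended on the length used. Slc2a1 is also a gene of endothelium. Of 8 endothelial markers 3 were in the table, none of them at 0, and they summed to 2.61 to 4.44 CPM in TdTomato- and 1.72 to 3.13 CPM in TdTomato+ libraries. Their part in the Slc2a1 result was not tested.

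**Figure D2:**
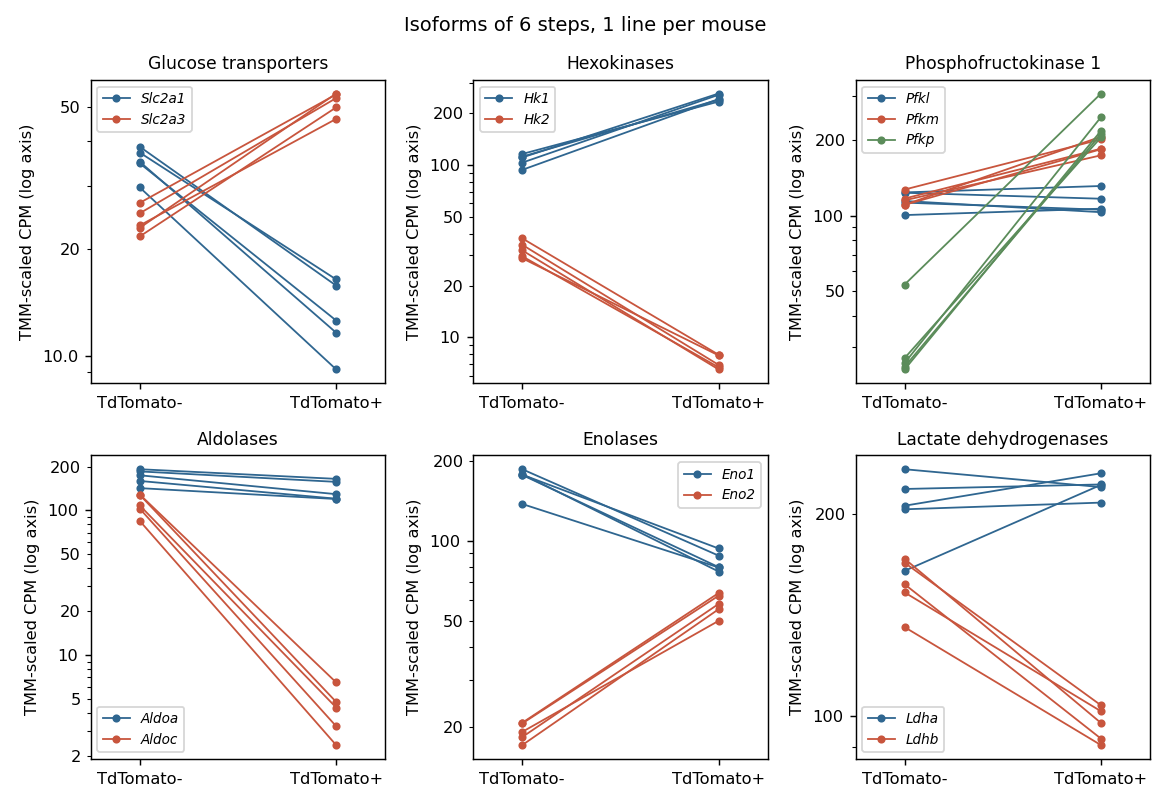
TMM-scaled CPM on a log axis of the isoforms of 6 steps in TdTomato- (left) and TdTomato+ (right) libraries, with 1 line for each of 5 mice. Lines of Slc2a1 and Slc2a3 cross, those of Hk1 and Hk2, and of Eno1 and Eno2, run in opposite directions, and the TdTomato- library of mouse 2 stands above the others for Pfkp at 53.2 CPM.

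Hexokinases trap glucose in the cell as glucose 6-phosphate. Hk1 (ENSMUSG00000037012, chr10:62268855-62379908, minus strand), the constitutive form of brain, was at 103, 93.9, 112, 111 and 116 CPM in the TdTomato- libraries and at 256, 242, 239.7, 260.4 and 234 CPM in the TdTomato+ libraries of mice 2 to 6. That is 2.30-fold higher in TdTomato+ cells with no overlap (log2FC 1.20, s.e. 0.06, adjusted p = 1e-07, edgeR). Hk2 (ENSMUSG00000000628, chr6:82725025-82774454, minus strand), the form typical of proliferating and insulin-responsive cells, was at 29.6, 37.6, 34.5, 32.0 and 28.8 CPM in the TdTomato- libraries and at 6.71, 7.94, 6.93, 6.52 and 7.86 CPM in the TdTomato+ libraries. The lowest TdTomato- library was still more than 3 times the highest TdTomato+ library (log2FC −2.17, s.e. 0.08, adjusted p = 1.9e-08, edgeR). Hk1 accounted for 69.7%±3.78 of hexokinase CPM per kilobase in TdTomato- and 96.0%±0.505 in TdTomato+ libraries, and the sum of both genes rose by 0.74±0.10 on the log2 scale in 5 of 5 mice (0.93 with coding transcript length). Gpi1, which converts glucose 6-phosphate to fructose 6-phosphate, differed little: it was 166 to 196 CPM in TdTomato- and 151 to 172 CPM in TdTomato+ libraries, overlapping ranges (log2FC −0.16, s.e. 0.05, adjusted p = 0.013, edgeR). Without mouse 3 this call was lost, at −0.14.

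Phosphofructokinase 1 commits the sugar to glycolysis, and its 3 subunits differed in how they moved. Pfkp, the platelet-type subunit (ENSMUSG00000021196, chr13:6579768-6648777, minus strand), had the largest increase of the 37 genes. It was at 53.2, 27.1, 24.4, 25 and 25.9 CPM in the TdTomato- libraries and at 307, 206, 218, 212 and 247 CPM in the TdTomato+ libraries of mice 2 to 6. TdTomato+ cells were 7.92-fold higher (log2FC 2.99, s.e. 0.10, adjusted p = 1.2e-08, edgeR). In mouse 2 both libraries were the highest of their population, and without that mouse log2FC was 3.11. Pfkm, the muscle-type subunit, went from 116±6.81 to 190.4±13.4 CPM and rose by 0.71 (s.e. 0.05) on the log2 scale, with groups that did not overlap. Pfkl, the liver-type subunit, was 101 to 124 CPM and 103 to 131 CPM (log2FC −0.03, s.e. 0.05, adjusted p = 0.58, edgeR), and was called lower when scaled by total counts only (−0.208). Of phosphofructokinase 1 CPM per kilobase, Pfkp made up 4.31%±1.85 in TdTomato- and 19.3%±2.09 in TdTomato+ libraries (9.54% and 37.1% with coding transcript length), and Pfkl went from 31.7%±2.41 to 18.5%±2.65. Pfkm was the leading subunit in both populations by either length, although 10.2% of its exonic bases overlap a gene on the same strand, Gm26513, and the sum of the 3 subunits rose by 0.75±0.11 on the log2 scale (0.96 with coding transcript length).

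The Pfkfb genes encode the bifunctional enzymes that make and remove fructose 2,6-bisphosphate, the strongest activator of phosphofructokinase 1. All 3 rose. Pfkfb2 went from 15.2±3.40 to 30.6±2.38 CPM (log2FC 1.02, s.e. 0.08, adjusted p = 3.2e-06, edgeR), and its highest TdTomato- library, that of mouse 2, was at 21.2 CPM. Of the 75-base windows of Pfkfb2, 16.2% occur in another annotated gene, which makes its level uncertain. Pfkfb3, the form with the strongest kinase activity, went from 79.8±5.96 to 111±16.9 CPM (log2FC 0.46, s.e. 0.06, adjusted p = 7.5e-05, edgeR). For Pfkfb4 the change was from 18.8±0.335 to 32.2±1.89 CPM (log2FC 0.77, s.e. 0.06, adjusted p = 1.6e-06, edgeR). Pfkfb3 stayed the leading form per kilobase, with 63.9%±2.13 in TdTomato- and 57.2%±3.72 in TdTomato+ libraries.

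Both aldolase genes and Tpi1 were lower in TdTomato+ cells. Of the 3 genes of this step all 3 were called lower, with a median log2 fold change of −0.64, and of the 7 genes from Gapdh to Pkm 6 were, with a median of −0.84, where 39.4% of all genes were called lower. No test set these steps apart from the others. Aldoc (ENSMUSG00000017390, chr11:78322968-78327781, plus strand) fell most of the 3. In mice 2 to 6 it was at 102, 108, 84.4, 128 and 128 CPM in the TdTomato- libraries and at 3.22, 4.34, 2.38, 4.74 and 6.46 CPM in the TdTomato+ libraries. This was a 26.5-fold difference (log2FC −4.73, s.e. 0.11, adjusted p = 2.3e-09, edgeR), and mouse 4 had the lowest level in both populations. Aldoa, the widely expressed aldolase, was 142 to 192 CPM in TdTomato- and 119.6 to 165 CPM in TdTomato+ libraries, which overlapped, but it was lower in the TdTomato+ library of 5 of 5 mice (log2FC −0.31, s.e. 0.05, adjusted p = 0.00023, edgeR). Aldoc was 36.6%±5.46 of aldolase CPM per kilobase in TdTomato- and 2.74%±1.14 in TdTomato+ libraries. Tpi1, which interconverts the triose phosphates, went from 137±20.6 to 87.6±13.2 CPM (log2FC −0.64, s.e. 0.05, adjusted p = 2.4e-06, edgeR). Summed aldolase level per kilobase fell by 0.93 on the log2 scale (s.d. 0.19), or by 0.73 with coding transcript length.

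Gapdh, which makes the NADH of glycolysis and often serves as a reference gene, was at 467, 592, 576, 562 and 553 CPM in the TdTomato- libraries and at 302, 349, 360.3, 314 and 341 CPM in the TdTomato+ libraries of mice 2 to 6. No TdTomato+ library reached the lowest TdTomato- library (log2FC −0.72, s.e. 0.04, adjusted p = 3.4e-07, edgeR), and without mouse 2 log2FC was −0.74. Pkm, the pyruvate kinase of brain (ENSMUSG00000032294, chr9:59656368-59679375, plus strand), is the enzyme that makes pyruvate and had the highest CPM per kilobase of the 37 genes, 175 in TdTomato- and 88.5 in TdTomato+ cells. It was at 726, 935, 968, 869.5 and 871 CPM in the TdTomato- libraries and at 402, 471, 488, 408 and 444 CPM in the TdTomato+ libraries, 1.97-fold lower in the latter (log2FC −0.98, s.e. 0.04, adjusted p = 5.5e-08, edgeR). Counts per gene do not separate the splice forms of Pkm, so which of them changed cannot be read from these data. Between these steps, Pgk1, which makes the first ATP, went from 56.8±8.13 to 31.6±4.00 CPM, and Pgam1, the phosphoglycerate mutase, from 32.2±2.79 to 23.7±0.649 CPM. Their log2 fold changes were −0.84 (s.e. 0.05) and −0.44 (s.e. 0.06), each lower in 5 of 5 mice. Reads were kept only where they mapped uniquely, and of the 75-base windows of their transcripts 52.8% of Pgk1, 34.9% of Pgam1, 23.0% of Eno1, 22.6% of Gapdh and 17.8% of Pkm occur exactly in other annotated genes. There were 121 such genes for Gapdh, 6 for Eno1, 4 for Pgk1, 3 for Pkm and 2 for Pgam1, and 15.3% of the exonic bases of Pkm overlap a gene on the same strand, Gm49759. The levels of these genes are uncertain to that extent.

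Bpgm makes and breaks 2,3-bisphosphoglycerate and is best known from red blood cells. It was at 45.9, 48.0, 56.7, 50.2 and 45.6 CPM in the TdTomato- libraries and at 11.3, 13.1, 14.6, 14.7 and 8.36 CPM in the TdTomato+ libraries of mice 2 to 6. The groups lay far apart (log2FC −2.005, s.e. 0.09, adjusted p = 7.5e-08, edgeR), just past the threshold for DEGs. It left the DEGs under RLE scaling, with a prior count of 2, without the block, and without mouse 2 or mouse 6 (−1.90 for the last). Erythroid markers, of which 6 of 10 were in the table, were also lower in TdTomato+ cells, with sums of 1.18 to 27.9 CPM there and of 76.8 to 260.1 CPM in TdTomato- libraries. Their highest sums among TdTomato- libraries were in mice 5 and 6, while Bpgm was highest in mouse 4. Among TdTomato+ libraries their highest sum was in mouse 4, and Bpgm was highest in mice 4 and 5. Their part in the Bpgm result was not tested.

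The enolases gave the clearest opposite movement of the lower steps. Eno1 (ENSMUSG00000063524, chr4:150236721-150248879, plus strand), the enolase of most cells, was at 138, 186, 178, 179 and 177 CPM in the TdTomato- libraries and at 79.5, 88.1, 93.8, 76.8 and 79.8 CPM in the TdTomato+ libraries of mice 2 to 6 (log2FC −1.03, s.e. 0.06, adjusted p = 5.8e-07, edgeR). Eno2 (ENSMUSG00000004267, chr6:124760053-124769673, minus strand), the neuron-specific enolase, was at 20.7, 19.1, 17.0, 18.3 and 20.6 CPM in the TdTomato- libraries and at 63.7, 50.05, 55.4, 58.0 and 62.2 CPM in the TdTomato+ libraries (log2FC 1.59, s.e. 0.06, adjusted p = 1.8e-08, edgeR). Both genes separated the populations without overlap, and without mouse 2 log2FC of Eno1 was −1.09. Eno2 made up 11.4%±1.91 of enolase CPM per kilobase in TdTomato- and 44.2%±4.02 in TdTomato+ libraries (7.58% and 33.5% with coding transcript length). Eno1 therefore remained the larger part in TdTomato+ cells by either length. Summed enolase level per kilobase fell by 0.36 on the log2 scale (s.d. 0.17), or by 0.56 with coding transcript length.

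**Figure D3:**
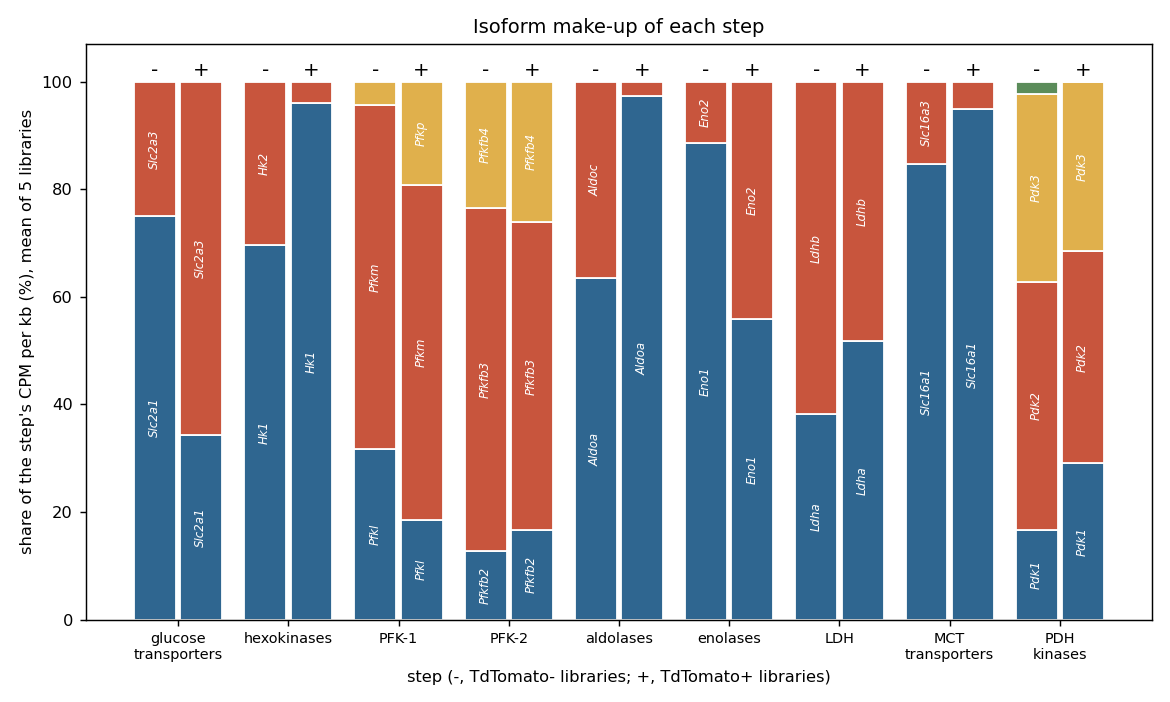
Share of each isoform in the CPM per kilobase of exon of its step (vertical axis, %), as the mean of 5 libraries, in TdTomato- (-) and TdTomato+ (+) cells. The unlabelled thin segments are Pfkp in TdTomato-, Hk2, Aldoc and Slc16a3 in TdTomato+, and Pdk4 at the top of the PDH kinases; the leading isoform changes for the glucose transporters, and the LDH shares in TdTomato+ cells lie close together, at 51.7% and 48.3%.

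Lactate dehydrogenase joins pyruvate and lactate, with the A subunit (Ldha) favoured in glycolytic tissue and the B subunit (Ldhb) in oxidative tissue. Ldha was at 164, 233, 218, 203 and 205 CPM in the TdTomato- libraries and at 221, 219, 221, 208 and 229.5 CPM in the TdTomato+ libraries of mice 2 to 6. The ranges overlapped (log2FC 0.11, s.e. 0.07, adjusted p = 0.17, edgeR). Ldhb was at 136, 153, 169, 157 and 171 CPM in the TdTomato- libraries and at 90.6, 102, 104, 92.6 and 97.7 CPM in the TdTomato+ libraries. It was lower in every TdTomato+ library (log2FC −0.69, s.e. 0.05, adjusted p = 1.2e-06, edgeR). The Ldha share of LDH per kilobase went from 38.1%±2.28 to 51.7%±1.43 (48.3% and 61.9% with coding transcript length). Of the 75-base windows, 12.6% of Ldhb and 2.69% of Ldha occur exactly in other annotated genes, so which subunit leads in TdTomato+ cells is uncertain by exonic length. Slc16a1 and Slc16a3 encode MCT1 and MCT4, which carry lactate and pyruvate across the cell membrane. Slc16a1 was 16.5 to 28.5 CPM in TdTomato- and 20.3 to 36.7 CPM in TdTomato+ libraries, which overlapped (log2FC 0.20, s.e. 0.13, adjusted p = 0.19, edgeR), and it passed the threshold only when mouse 4 was left out (log2FC 0.33). Slc16a3, the lactate exporter of glycolytic cells, was low in both populations, at 3.17, 7.60, 7.78, 4.16 and 4.25 CPM in the TdTomato- libraries and at 1.22, 1.82, 2.03, 1.70 and 1.99 CPM in the TdTomato+ libraries. It was lower in the TdTomato+ library of all 5 mice (log2FC −1.57, s.e. 0.18, adjusted p = 3.3e-05, edgeR). The TdTomato- libraries of mice 3 and 4 stood above the other three for Slc16a3. Their microglia marker sums were 15.2 and 20.1 CPM, and those of the others 53.3 to 68.9 CPM; the part of these cells in the Slc16a3 result was not tested.

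At the mitochondrial membrane both subunits of the pyruvate carrier rose. Mpc1 was at 20.2, 18.6, 17.3, 19.1 and 20.6 CPM in the TdTomato- libraries and at 28, 29.9, 32.0, 28.7 and 29.4 CPM in the TdTomato+ libraries of mice 2 to 6 (log2FC 0.63, s.e. 0.07, adjusted p = 3.1e-05, edgeR). Mpc2 was at 24.6, 25.3, 25.7, 25 and 25.6 CPM in the TdTomato- libraries and at 33.6, 33.9, 33.6, 31.8 and 31.1 CPM in the TdTomato+ libraries (log2FC 0.38, s.e. 0.05, adjusted p = 9.1e-05, edgeR). Both changes were under 2-fold, but the groups did not overlap. Mpc1 is uncertain in level, since 21.3% of its 75-base windows occur in another gene and 23.1% of its exonic bases overlap exons on the opposite strand, as do 16.1% of those of Pdha1 and 11.5% of those of Gpi1. The 4 genes of the pyruvate dehydrogenase complex, which turns pyruvate into acetyl-CoA, moved little. Pdha1, the E1 alpha subunit, was at log2FC 0.04 (s.e. 0.04) and Dld, the E3 subunit, at −0.04 (s.e. 0.05), neither past the threshold (adjusted p = 0.47 and 0.52, edgeR), although both were called lower when scaled by total counts only (−0.142 and −0.215). Pdha1 was 81.4 to 97.1 CPM in the TdTomato- and 90.6 to 97.1 CPM in the TdTomato+ libraries, with log2FC 0.01 when mouse 2 was left out, and Dld was 60.9 to 80.4 and 61.6 to 76.2 CPM. Pdhb, the E1 beta subunit, fell by 0.18 on the log2 scale, from 73.5±2.76 to 64.9±1.12 CPM, and Dlat, the E2 subunit, by 0.14, from 48.0±1.54 to 43.7±0.567 CPM. Dlat lost its call without mouse 6, at −0.13.

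The kinases that switch this complex off moved in different directions. Pdk1 was at 26.2, 32.9, 32.9, 26.2 and 27.9 CPM in the TdTomato- libraries and at 42.4, 41.6, 43.5, 41.7 and 39.3 CPM in the TdTomato+ libraries of mice 2 to 6 (log2FC 0.52, s.e. 0.06, adjusted p = 6.5e-05, edgeR). Pdk2 went the other way, from 32.9±4.32 CPM to 22.9±1.02 CPM with log2FC at −0.51 (s.e. 0.08), as did Pdk3, from 20.1±1.89 to 14.9±1.63 CPM with log2FC at −0.43 (s.e. 0.07). Pdk4, the kinase induced by fasting and fatty acids, was at 2.58, 1.66, 1.04, 1.90 and 1.81 CPM in TdTomato- libraries. In TdTomato+ libraries it had 5 counts in all, with none above 3 counts in a library, against 240 counts in TdTomato- libraries. The ratio of pooled counts, each over total counts and without TMM scaling, was 45.9 (95% interval 19.4 to 142.7, counting error only). The edgeR call, with TMM scaling, was at an adjusted p of 6.3e-06. Pdk1 made up 16.7%±2.21 of kinase CPM per kilobase in TdTomato- and 29.1%±1.46 in TdTomato+ libraries, and Pdk2 led in both. Summed kinase level per kilobase fell by 0.29 on the log2 scale (s.d. 0.11). Pdp1, the phosphatase that switches the complex on again, went from 50.3±2.30 to 63.2±5.32 CPM (log2FC 0.33, s.e. 0.05, adjusted p = 0.00045, edgeR). Pcx, which carboxylates pyruvate to oxaloacetate and is known from astrocytes in brain, fell by 0.42 (s.e. 0.11) on the log2 scale, with overlapping ranges of 35.7 to 47.8 and 24.7 to 37.0 CPM.

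The ratio of isoforms within a library does not depend on scaling, so 15 ratios were also compared by mouse. All 15 moved the same way in 5 of 5 mice, for which the exact sign-flip test, taken two-sided, gives p = 0.0625 each, the smallest value open to 5 pairs, and 0.0625 after adjustment over the 15 ratios. A threshold of 0.05 therefore could not be reached by this test. The largest shift among genes above the floor was Aldoc to Aldoa, which changed by −4.45±0.40 on the log2 scale (s.d., n = 5). Hk2 to Hk1 changed by −3.37±0.29, a 10.4-fold shift towards Hk1. Pfkp rose by 3.02±0.36 relative to Pfkl and by 2.28±0.40 relative to Pfkm, Eno2 by 2.63±0.19 relative to Eno1, and Slc2a3 by 2.55±0.28 relative to Slc2a1. The s.d. of each of these shifts was well under the shift itself. Smaller shifts were −0.80±0.20 for Ldhb to Ldha, −1.03±0.32 for Pdk2 to Pdk1 and −0.25±0.17 for Mpc2 to Mpc1. For Pfkfb2 to Pfkfb3 and Pfkfb4 to Pfkfb3 the shifts were 0.57±0.33 and 0.31±0.16, and the ratios of the populations overlapped. An exact permutation test over the 10 libraries ignores that each mouse gave a pair. This permutation test gave p = 0.0079 for 13 ratios (adjusted 0.0092) and 0.0238 for these 2 Pfkfb ratios. For 5 against 5 libraries 0.0079 is the smallest value open to it, reached whenever the groups do not overlap. Ratios that share a gene, such as those with Pdk1, are not independent. The paired test above passed none.

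Within a population the genes varied little between mice. The coefficient of variation of the CPM had a median of 9.39% in TdTomato- and 8.50% in TdTomato+ libraries, and was lowest for Dlat in TdTomato+ cells at 1.29%. It was highest for Pdk4 in TdTomato+ cells, at 142.3%, where no library held more than 3 counts. Next came Pfkp and Slc16a3 in TdTomato- cells, at 39.8% and 39.7%, and Aldoc in TdTomato+ cells at 36.8%. The library of mouse 2 was the lowest of its population for 21 of 37 genes in TdTomato- and 16 of 37 in TdTomato+ cells. In TdTomato+ cells the library of mouse 4 was the highest for 17 of 37. Such counts were not taken over all genes, so a trait of these genes and a shift of the whole library cannot be told apart.

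Genes of neighbouring pathways gave a mixed picture, and each list is described by its calls and median. These counts stand against 37.9% of all genes called higher and 39.4% called lower, with a median of −0.01 over all genes, and no test set any list apart from other genes. Of 29 further genes of glycolysis and pyruvate use, 20 were in the table, 6 higher, 8 lower and 6 not called, with a median log2 fold change of −0.06. Among them the transporter genes Slc2a6 and Slc16a7 (MCT2, the neuronal lactate importer) rose by 2.18 and 1.5 on the log2 scale, and Slc2a4 fell by 2.90. Slc2a10 was also called lower, but it held 0 to 5 counts in TdTomato+ libraries against 83 to 120, and its log2FC of −5.82 ranged from −7.17 to −5.45 when 1 mouse was left out. Of the 5 genes of the serine branch, which leaves glycolysis at 3-phosphoglycerate, all 5 were lower (39.4% of all genes), with a median of −3.30; Phgdh, its first enzyme, fell by 3.77 and Shmt1, a folate-dependent enzyme, by 3.67 on the log2 scale. The pentose phosphate pathway had 2 of 8 genes higher and 5 lower (median −0.35), and glycogen metabolism had 3 of 8 higher and 5 lower (median −0.40), with the phosphorylase Pygl at 1.5 and the branching enzyme Gbe1 at −2.54.

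Of 16 genes of the tricarboxylic acid cycle, 2 were higher, 9 lower and 5 not called (median −0.19), where 37.9% of all genes were higher and 39.4% lower, and Suclg2, a subunit of the GTP-forming succinyl-CoA ligase, fell most, by 2.79. The NADH shuttles had 2 of 9 higher and 3 lower (median 0.02), with the aspartate-glutamate carrier Slc25a13 at −3.81 and the dehydrogenase Gpd1l at 0.92. Both gluconeogenesis genes in the table, of 5 listed, were lower, Pck2 at −1.19 and G6pc3 at −1.17. Of 8 regulators of the HIF pathway, 1 was higher, Egln1 at 0.17, and 3 were lower, led by Egln3 at −2.04 and Epas1 at −1.91. Epas1 was near the floor, with 1 to 10 counts in TdTomato+ and 25 to 28 in TdTomato- libraries. Hif1a, the other lower gene, was far more abundant and changed less, from 169 to 135 CPM (−0.325). Hypoxia targets outside glycolysis gave 3 higher and 5 lower of 11 (median −0.05), Ndrg1 rising most at 3.27, and the MYC family gave 1 higher and 2 lower of 4 (median −0.16).

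**Figure D4:**
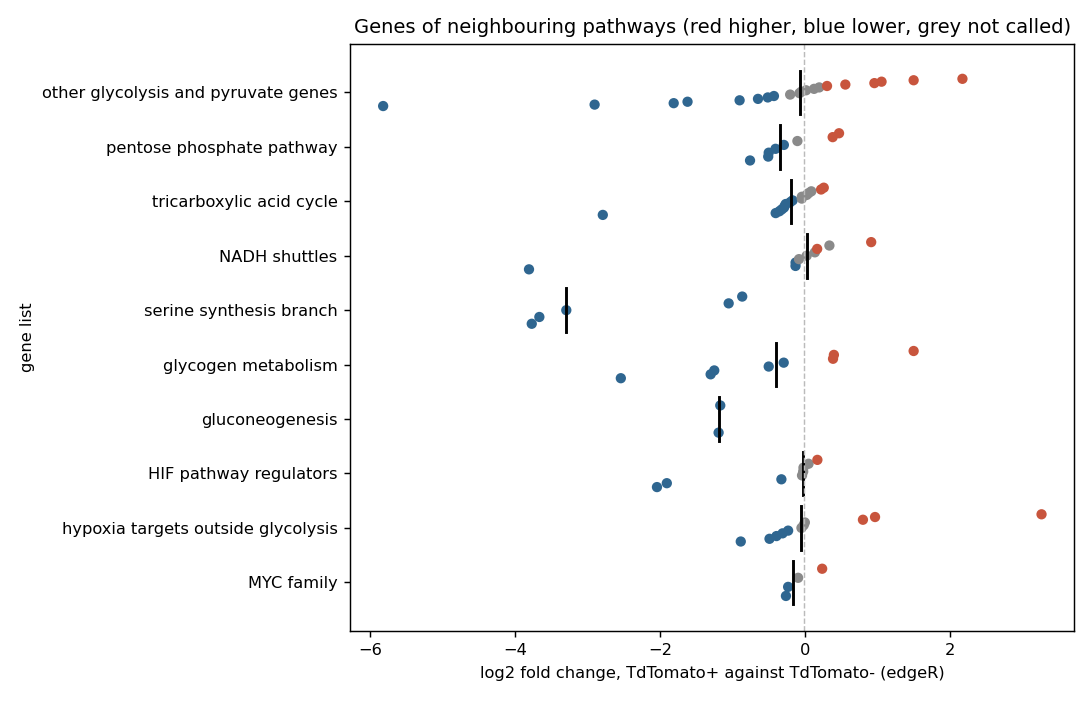
Log2 fold change of TdTomato+ against TdTomato- cells (horizontal axis, edgeR) for each gene of 10 neighbouring lists (vertical axis), coloured by call, with a black bar at the list median and a dashed line at the median of all genes. The serine branch lies wholly to the left, with a median of −3.30, and the other lists with 4 or more genes have medians between −0.40 and 0.02.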

How the data were processed

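RNA was sequenced from TdTomato+ and TdTomato- cells sorted at 14.5 dpc, 24 h after tamoxifen at 13.5 dpc, with gates set on cre-negative littermates. The authors trimmed reads (Phred under 28), aligned them to GRCm38 with STAR 2.4.2a (version from the submitters' processing notes) allowing 1 mismatch, and deposited raw counts of uniquely mapped reads per gene. The strand setting of the counting is not given in the sources used here, so overlapping genes are uncertain. Methods and labels differ in kit, sequencer and read length (75 or 100 bp). The table holds genes with at least 0.501 CPM in 5 libraries, 14271 with a GENCODE symbol and 29 without.

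Populations were compared with edgeR 4.0.16 in R 4.3.3 (filterByExpr, which removed none of the 14300 genes, TMM, whose factors were 0.93 to 0.95 for TdTomato+ and 1.06 to 1.07 for the other libraries, glmQLFTest, mouse number as a block, Benjamini-Hochberg over all genes). The s.e. is the size of the log2 fold change over the square root of F. The floor was 3 counts (0.110 to 0.128 CPM by total counts, without TMM scaling), for counting error only. Isoform ratios used log2 of counts plus 0.5. Mouse numbers carry both populations, and the methods describe paired comparisons: deviations of libraries with the same number correlated at 0.303, 0.268, 0.281, 0.186 and 0.316 for mice 2 to 6, against −0.312 to 0.212 between numbers. No libraries were identical, and none of a population agreed within sampling noise. Whether the numbers are separate litters is not stated, so p-values measure the spread between these samples.

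Every one of the 37 genes was named, and of each neighbouring list up to 2 genes each way with the largest change, with Hif1a besides. The members, lists, ratios and motifs were chosen with earlier results of these data known. The procedure was tested on simulated data. Alternatives were RLE, upper-quartile and total-count scaling, DESeq2 1.42.0, no filter, a filter of 1 CPM, no block, robust estimation, a prior count of 2 in place of 0.125, a ratio offset of 2, and each mouse left out. Coding transcript length was added after the data had been seen.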

Additional observations from a re-analysis of the deposited data

Results flagged for a closer look

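Of 73 groups of 5 libraries, 1 gene in 1 population each, 4 held a library that stood apart by Dixon's ratio, the gap to the nearest library over the range of log2 CPM, and chance would give 3.65. All 4 were the TdTomato- library of mouse 2. Pfkp was highest there, at 53.2 CPM against 24.4 to 27.1 CPM (ratio 0.866). Gapdh was lowest, at 467 CPM against 553 to 592 CPM (0.714), Eno1 was lowest, at 138 CPM against 177 to 186 CPM (0.833), and Pdha1 was lowest, at 81.4 CPM against 92.7 to 97.1 CPM (0.733). The same library had the lowest sum of deep-layer neuron markers among TdTomato- libraries (1767 CPM) and the highest sums of GABAergic (1509 CPM), proliferation (1820 CPM) and microglia markers (68.9 CPM). It also had the lowest sum of intermediate progenitor markers (639 CPM), and its radial glia sum (1716 CPM) lay within the range of the other TdTomato- libraries. The part of the cells behind these markers in the 4 flagged values was not tested. Without mouse 2 the log2 fold changes were 3.11 for Pfkp, −0.74 for Gapdh, −1.09 for Eno1 and 0.01 for Pdha1.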

How the results depend on the processing

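The 12 genes called higher and 20 called lower were 12 to 13 and 19 to 20 when each mouse was left out, and the counts past 2-fold were 4 to 5 higher and 6 to 8 lower. Scaling by total counts only moved the median of all genes by −0.18 on the log2 scale and that of the 37 genes from −0.16 to −0.34. It gave 12 higher and 23 lower calls, with 3 genes higher by at least 2-fold in place of 5, since Slc2a3 (0.93) and Pfkfb2 (0.85) came under the threshold, and 9 lower by at least 2-fold in place of 7, with Pgk1 (−1.021) and Pkm (−1.156) added. Over all 14300 genes that scaling gave 4110 higher and 7123 lower calls, in place of 5424 and 5632, so lower calls rose over all genes too. Under that scaling Ldha (−0.067) and Pdha1 (−0.142) changed sign, and Pdha1, Pfkl (−0.208) and Dld (−0.215) became called lower. Dld was −0.063 to 0.005 and Pfkl −0.059 to 0.007 when 1 mouse was left out, and these genes were not called by TMM scaling. The summed level of the glucose transporters changed sign with coding transcript length (0.022), chosen after the data had been seen. Without the replicate block, the paired fit gave way to 10674 calls over all genes in place of 11056, and to 12 higher and 20 lower of the 37 genes; it changed no call of these genes at the adjusted p, but called genes were 3 in place of 5 among the NADH shuttles and 1 in place of 3 in the MYC family. Bpgm, at −2.005, left the 5 DEGs without the block (−1.99), with a prior count of 2 (−1.998), under RLE scaling and without mouse 2 or mouse 6, each giving 4. DESeq2 lost the call of Dlat (−0.13). The NADH shuttles also had 3 called genes by DESeq2 and without mouse 6. Of the fold changes of single genes under all alternatives, 508 kept their direction and side of the threshold, 4 changed sign, Pdha1 passing the threshold as it did so, and of the rest 3 passed it and 3 lost it. Genes of low counts, Pdk4 first, are limited by depth, and counts per gene do not resolve splice forms.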
